A study of Danio rerio with 4 samples.

Results

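The genes described here are 5 genes of the neural crest and of the pigment cells that it gives rise to: *sox10*, *pmela*, *oca2*, *pnp4a* and *xdh*. They were taken by symbol from the deposited table of 756 genes, in which each symbol has 1 row. Heads of zebrafish larvae were dissected and dissociated at 48 hpf, and the sorted cells (FACS) were profiled as bulk RNA. The study asked which cells of the larval head express the vascular ligand Apelin. Neural crest was 1 of the candidate origins that it examined, with a *sox10* reporter. In imaging at 48 hpf the paper saw no overlap of that reporter with Venus and took this to exclude a crest origin. It reported a mesodermal origin with a *tbxta* reporter. Of the 4 libraries, 2 were made from cells that were positive for Venus and negative for mCherry (Venus positive cells) and 2 from cells without either reporter (double negative cells).

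All larvae carried the same pair of transgenes in a genetic background labelled wildtype. One of them, TgBAC(apln:Venus-PEST), drives a short-lived Venus protein from *apln* regulatory sequence on a bacterial artificial chromosome, so the gate follows recent reporter activity and not *apln* transcript. The other, Tg(kdrl:Hsa.HRAS-mCherry), labels endothelial cells, and mCherry positive cells were in neither group. The labels call the cell type of both groups mixed. The double negative cells therefore hold the remaining cell types of the head together. The sources used here give neither the number of larvae behind a library nor whether replicate libraries were separate clutches or sorts, and the p-values therefore cover the spread between libraries alone, which may be technical. Phenylthiourea, an inhibitor of melanin synthesis, is named in the methods for imaged larvae, and the sources do not give whether the sorted larvae received it.

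Pigment cells of the zebrafish body and head arise from the neural crest, a migratory population of the embryo in which the transcription factor Sox10 is needed for pigment, glial and neuronal fates. Melanophores make black melanin in melanosomes, iridophores reflect light from stacked guanine crystals and draw on purine synthesis, and xanthophores hold yellow pteridines and carotenoids. Several of their genes also have a place outside the crest: the retinal pigment epithelium of the eye makes melanin with the same proteins, and *sox10* is expressed in glia and in the otic vesicle. In bulk libraries fewer cells of a type and less RNA per cell cannot be told apart.

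The table holds only genes that the authors' own test passed on these libraries, all with a Q value under 0.05, so a difference between the groups is a condition for being in it. A normalized read count is the estimated number of reads of a gene divided by the authors' size factor of the library. The listed genes held 876579 to 1175560 reads per library, which is not the full depth. Of 754 listed genes tested, 484 were higher in Venus positive cells and 270 lower, and the groups did not overlap in any of them. *apln* itself, which checks the sort, was at 651 and 802 normalized read counts in double negative cells against 11006 and 8899 in Venus positive cells. Marker lists of other cell types also differed. Of 18 erythrocyte genes, 16 were in the table and all 16 were lower, with summed normalized read counts of 219375 and 397637 in double negative cells against 5646 and 3987 in Venus positive cells, where 2 and 3 of them were at 0. Of 21 genes of epidermis and epithelia, 11 were in the table and all 11 were lower (369986 and 307889 against 26228 and 51881). Of 12 mesenchyme genes, 10 were in the table and all 10 were higher (9345 and 12578 against 85545 and 77349). Other library scaling factors (TMM of edgeR or RLE of DESeq2) were computed over the listed genes alone. With them all 10 kept their direction and 1 was called. Such factors assume that most genes do not differ, which a list selected for differences does not meet. Higher calls lost under them therefore give no evidence. None of the 7 endothelial, 8 neuronal and 10 macrophage genes was in the table. The part of these cell types in the values below was not tested.

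*sox10* and the melanophore and iridophore genes were lower in Venus positive cells, by 3.08-fold to 5.52-fold, and the xanthophore gene *xdh* was 7.89-fold higher. The count over the 5 genes was 4 lower, where 35.8% of the genes tested were lower, and 1 higher, where 64.2% were higher (edgeR quasi-likelihood test, Benjamini-Hochberg adjusted over the listed genes). Because every listed gene had been selected for a difference, these counts give no evidence of their own. With the same p-values adjusted over the 23016 genes of the authors' test, none of the 5 passed. Among the listed genes 194 of the 270 lower and 224 of the 484 higher ones passed. These are 0.843% and 0.973% of the 23016 genes, of which the unlisted ones were not fitted here and were counted as not called. All 5 had an unadjusted edgeR p under 0.05. DESeq2 adjusted over the 23016 genes called 2 of them, *oca2* and *pnp4a* (DESeq2 Wald test, adjusted p = 0.0455 and 0.0467). *xdh*, *sox10* and *pmela* lay just above the threshold (DESeq2 Wald test, adjusted p = 0.0506, 0.0541 and 0.0683), so the 2 called do not stand apart. The share of all genes called by DESeq2 was not computed, and this count gives no evidence of its own.

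**Figure D1:**
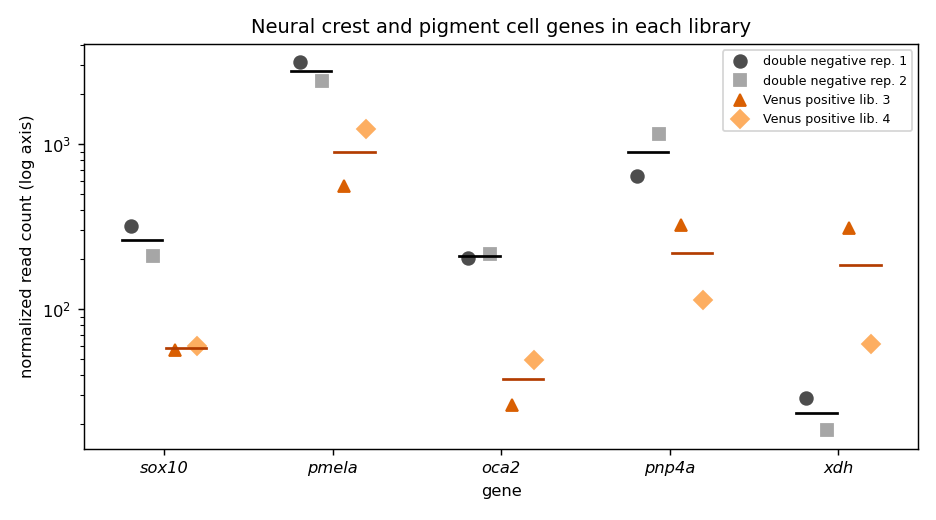
Normalized read counts on a log axis of the 5 genes in each of the 4 libraries, 1 point per library and short lines at the group means, with the 2 double negative and the 2 Venus positive libraries set apart. The Venus positive points of *sox10*, *pmela*, *oca2* and *pnp4a* lie below their double negative points, those of *xdh* lie above, and the Venus positive libraries are widest apart in *xdh* (310.5 and 61.6).

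*sox10* encodes the transcription factor that stands at the head of the pigment and glial programmes of the crest. It had 318.8 and 208.6 normalized read counts in double negative replicates 1 and 2, and 56.6 and 59.9 in the Venus positive libraries, which the table numbers 3 and 4. The Venus positive libraries lay close together and well below both double negative libraries. The means were 264 ± 77.9 and 58.2 ± 2.33 (SD, n = 2 libraries each), a log2 fold change of -2.18 with a standard error of 0.72 (edgeR, adjusted p = 0.0077 over the listed genes and 0.235 over 23016 genes). Without double negative replicate 1 the log2 fold change was -1.84 and the call was lost (edgeR, adjusted p = 0.0984). The Venus positive values rest on 45 and 69 reads.

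*pmela* encodes the amyloid protein that forms the fibrils of the melanosome, and by TPM it was the most abundant of the 5 genes in both groups. It had 3126 and 2420.1 normalized read counts in the double negative libraries, against 561 and 1239 in Venus positive libraries 3 and 4. Both Venus positive libraries were lower than both double negative libraries, and library 4 held 2.21 times the count of library 3. The means were 2773 ± 499 and 899.8 ± 479.7 (SD, n = 2), a log2 fold change of -1.62 with a standard error of 0.49 (edgeR, adjusted p = 0.00477 over the listed genes and 0.146 over 23016 genes). This was the smallest log2 fold change of the 5 genes, and without Venus positive library 3 it was -1.16 and no longer called (edgeR, adjusted p = 0.0668). Without library 4 it was -2.31.

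*oca2* encodes a transport protein of the melanosome membrane that is needed for melanin synthesis. Its normalized read counts were 202.9 and 215.7 in the double negative libraries, against 26.4 and 49.5 in Venus positive libraries 3 and 4. The double negative libraries nearly coincided, and library 4 was again above library 3, here by 1.87 times. The means were 209 ± 9.05 and 37.9 ± 16.3 (SD, n = 2), and the log2 fold change was -2.45 with a standard error of 0.77 (edgeR, adjusted p = 0.00592 over the listed genes and 0.181 over 23016 genes). The Venus positive values rest on 21 and 57 reads.

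*pnp4a* encodes a purine nucleoside phosphorylase, used as a marker of iridophores, which make guanine for their crystals. It had 638.4 and 1150.2 normalized read counts in double negative replicates 1 and 2, and 324.3 and 113.7 in Venus positive libraries 3 and 4. The groups did not overlap, but here library 3 was the higher Venus positive library, the reverse of both melanin genes. The means were 894 ± 362 and 219 ± 149 (SD, n = 2), with a log2 fold change of -2.03 and a standard error of 0.59 (edgeR, adjusted p = 0.00393 over the listed genes and 0.120 over 23016 genes). Without library 3 the log2 fold change was -2.97 and without library 4 it was -1.46, and the call was kept in both.

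*xdh* encodes xanthine dehydrogenase, which acts in purine breakdown and in the making of the yellow pteridines of xanthophores. It had 28.8 and 18.4 normalized read counts in the double negative libraries, from 35 and 18 reads, and 310.5 and 61.6 in Venus positive libraries 3 and 4, from 247 and 71 reads. Both Venus positive libraries were higher, but they differed by 5.04 times from each other. The exact Poisson 95% intervals, which cover counting error only, were 20.0 to 40.0 and 10.9 to 29.1 in the double negative libraries, and 273 to 352 and 48.1 to 77.7 in the Venus positive libraries. They overlapped neither between the groups nor between the Venus positive libraries. The means were 23.6 ± 7.32 and 186 ± 176 (SD, n = 2), with a log2 fold change of 2.97 and a standard error of 0.90 (edgeR, adjusted p = 0.00512 over the listed genes and 0.156 over 23016 genes). Without library 3 the log2 fold change was 1.38 and the call was lost (edgeR, adjusted p = 0.162), and without library 4 it was 3.71.

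The *xdh* call was not kept with other size factors. Scaling factors computed over the listed genes alone moved the log2 fold changes of the genes by a median of -1.75 (TMM) or -1.85 (RLE). With them *xdh* remained higher by 1.08 or 0.95 on the log2 scale and did not pass (edgeR, adjusted p = 0.359 and 0.439). The 4 other genes remained lower and called. Under these factors 84 or 72 genes were called higher, where 484 were with the authors' factors, and 270 lower, as before. Most higher genes thus lost their call, in a list where each gene was selected for a difference. The loss gives no evidence about *xdh* in particular.

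**Figure D2:**
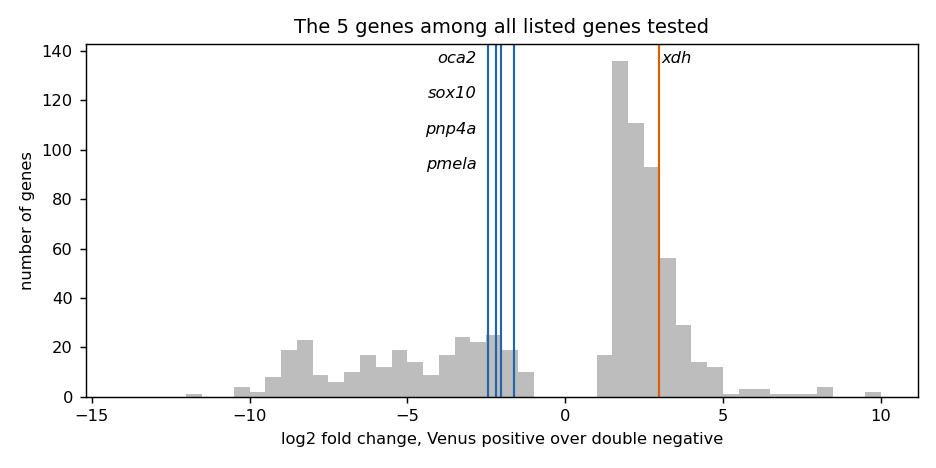
Number of listed genes by log2 fold change of Venus positive over double negative cells (edgeR, 754 genes tested), with lines at the 5 genes. The 4 lower genes, from -2.45 for *oca2* to -1.62 for *pmela*, stand nearer to 0 than the median of the 270 lower genes (-4.70), and *xdh* at 2.97 stands above the median of the 484 higher genes (2.39).

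Among all listed genes the decreases of *sox10*, *pmela*, *oca2* and *pnp4a* were small ones. The median log2 fold change was -4.70 over the 270 lower genes and 2.39 over the 484 higher genes. Ranked from the largest decrease, *oca2* was number 217, *sox10* 229, *pnp4a* 238 and *pmela* 254 of the 270 lower genes. This does not hold for every listed gene of these classes. The melanophore gene zgc:91968 was number 39, at -8.41. It had 0 reads in both Venus positive libraries, which leaves the size of its fold change open. *xdh* was number 135 of the 484 higher genes, ranked from the largest increase.

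Levels of different genes can be compared only per transcript length, for which the authors' group means of TPM (transcript abundance scaled to a fixed total per library) were used; these have no spread. In the double negative cells the order was *pmela* at 115.7 TPM, *pnp4a* at 55.7, *sox10* at 9.13, *oca2* at 6.07 and *xdh* at 0.455. In the Venus positive cells it was *pmela* at 43.4, *pnp4a* at 14.9, *xdh* at 3.62, *sox10* at 2.2 and *oca2* at 1.37. *pmela* and *pnp4a* were the first of the order in both groups, and *oca2* was below *sox10* in both. The Venus positive mean of *xdh* rests mainly on library 3 (310.5 normalized read counts against 61.6 in library 4), so its place above *sox10* and *oca2* may not hold in library 4. Whether neighbours in these orders differed was not tested, since no TPM value of a single library was used for both groups.

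To compare the pigment classes, the log2 ratio of 2 genes was taken within each library for all 10 pairs. It depends on the size factor only through the 1 added to each normalized read count. In the ratio of *pnp4a* to *xdh*, iridophore to xanthophore, the log2 values were 4.43 and 5.89 in double negative cells against 0.06 and 0.87 in Venus positive cells. Both double negative values were above both Venus positive values. The log2 ratios of *pmela* to *xdh*, melanophore to xanthophore, were 6.72 and 6.96 in double negative cells against 0.85 and 4.31 in Venus positive cells, and those of *oca2* to *xdh* were 2.78 and 3.48 against -3.51 and -0.31. In both the groups did not overlap. For every pair with *xdh* this separation was fixed beforehand and gives no evidence of its own. The groups did not overlap in any gene tested, and *xdh* went in the opposite direction to its partners. Only the size of the ratios was left open.

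Less the log2 fold change of *xdh*, that of *pnp4a* was -5.00 (standard error 1.08), that of *pmela* -4.59 (1.03), that of *oca2* -5.42 (1.19) and that of *sox10* -5.14 (1.15). The negative sign of these differences was likewise fixed, because *xdh* was higher and the other genes were lower. The standard errors treat the errors of the genes as independent. Without Venus positive library 3 the differences were -4.35, -2.54, -3.46 and -3.51, and without library 4 they were -5.17, -6.01, -6.69 and -5.92, in the same order of genes. The exact two-sided permutation test gave p = 0.33 for each of these pairs, the smallest that 2 against 2 libraries allow, and 0.667 after Benjamini-Hochberg adjustment over the 10 pairs. The design could not take any pair past 0.05.

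Between the melanophore and the iridophore genes no difference in response could be told. Less the log2 fold change of *pnp4a*, that of *pmela* was 0.41 (standard error 0.76) and that of *oca2* was -0.42 (0.97). The log2 ratios of *pmela* to *pnp4a* were 2.29 and 1.07 in double negative cells against 0.79 and 3.43 in Venus positive cells, so that the double negative values lay inside the span of the Venus positive ones. The same held for *oca2* to *pnp4a* (exact permutation p = 1 for both pairs). Both differences changed sign with the libraries left out: without library 3 they were 1.81 and 0.90, and without library 4 they were -0.84 and -1.52. A difference of the size of these standard errors in either direction was not detectable with 2 libraries a group.

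Within the melanophore class, *pmela* and *oca2* differed by 0.83 in log2 fold change (standard error 0.91). Their log2 ratio was 3.94 and 3.48 in double negative cells against 4.36 and 4.62 in Venus positive cells. The Venus positive ratios were the higher ones and the groups did not overlap (exact permutation p = 0.33). *sox10* differed from *pmela* by -0.55 (0.87), from *oca2* by 0.28 (1.05) and from *pnp4a* by -0.14 (0.93), and for these 3 pairs the ratios overlapped between the groups.

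**Figure D3:**
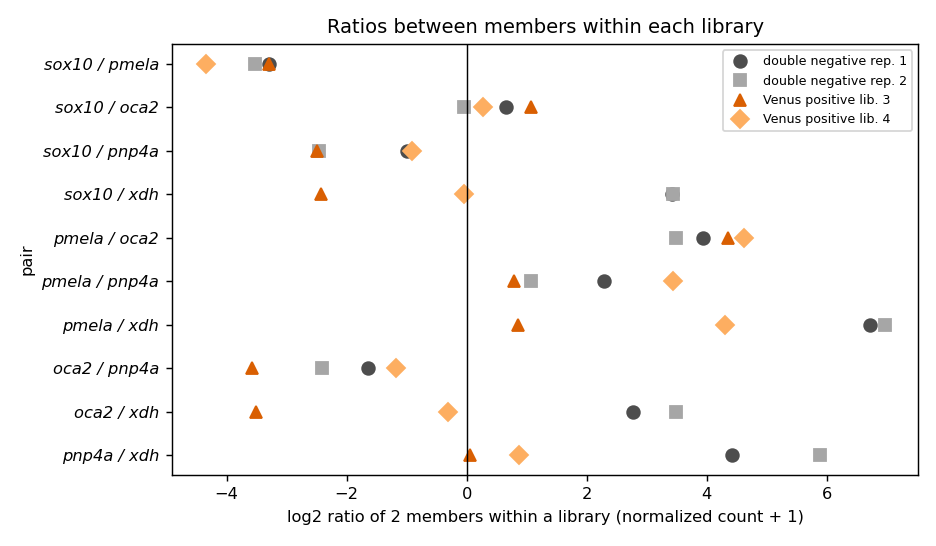
Log2 ratio of 2 genes within each library (normalized read count + 1) for the 10 pairs, 1 point per library. In the 4 pairs with *xdh* both double negative points lie to the right of both Venus positive points. The selection of the genes and their opposite directions required this. In *pmela* to *oca2* both Venus positive points lie to the right, and in the other pairs the groups overlap.

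The 2 Venus positive libraries differed from each other in the pigment genes, in opposite directions for the melanin genes and for *pnp4a* and *xdh*. Over all 754 genes the median size of the log2 ratio between these libraries was 0.585. The log2 ratio of library 3 to library 4 was -1.14 for *pmela* and -0.88 for *oca2*, 1.5 for *pnp4a*, 2.31 for *xdh* and -0.08 for *sox10*. Library 4 thus held more of both melanin genes, library 3 held more of the iridophore and the xanthophore gene, and *sox10* was level. The size of this ratio in *xdh* was above that of 93.5% of the genes tested, that in *pnp4a* above 86.9%, that in *pmela* above 75.7% and that in *oca2* above 64.3%. Differences between these libraries were not limited to pigment genes. Summed normalized read counts of the epidermis and epithelia genes were 26228 in library 3 and 51881 in library 4. Those of the erythrocyte genes were 5646 and 3987, and those of the mesenchyme genes 85545 and 77349.

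The split was also seen in other xanthophore and iridophore genes. No further melanophore gene could show it, since zgc:91968, the only other one in the table, was at 0 in both Venus positive libraries. The 3 xanthophore genes in the table were higher in library 3 by 5.04 times (*xdh*), 5.89 times (*pts*) and 8.04 times (*slc2a11b*), and the iridophore genes *apoda.1* and *defbl1* by 2.59 and 2.43 times. *pnp5a*, a purine nucleoside phosphorylase that was not on the iridophore list, was instead higher in library 4, by 1.80 times. In the double negative libraries the log2 ratios of replicate 1 to replicate 2 were 0.61 for *sox10*, 0.37 for *pmela*, -0.09 for *oca2*, -0.85 for *pnp4a* and 0.62 for *xdh*. Replicate 2 held more of *pnp4a*, *apoda.1* and *defbl1*. It also held more of *pts*, by 1.76 times, and of *slc2a11b*, by 7.47 times (8 and 48 reads in replicates 1 and 2), unlike *xdh*. The median size over all genes was 0.545. These differences lie within a group and have no test, and whether they come from the cells sorted or from the libraries was not tested.

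**Figure D4:**
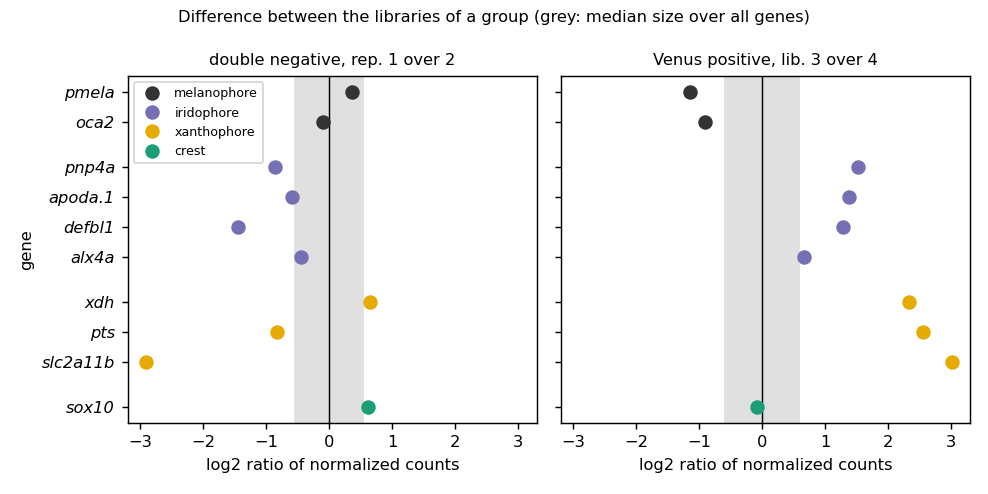
Log2 ratio of normalized counts between the 2 libraries of a group for the listed melanophore, iridophore and xanthophore genes and *sox10*, 1 point per gene, with the double negative libraries on the left and the Venus positive libraries on the right; the grey band spans the median size over all genes (0.545 and 0.585). In the Venus positive cells the melanin genes lie left of the band (-1.14 and -0.88) and the xanthophore genes furthest to the right (2.31 for *xdh*), while *sox10* is at -0.08.

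Each class was then read together with a wider list of its genes. A gene that is not in the table did not pass the authors' test or was not tested there, and its level was not analysed here. Of 23 neural crest genes, 5 were in the table, with a median log2 fold change of 2.21 beside 1.85 over all 754 genes tested. *sox10* was the lower one, and 4 transcription factor genes were higher, where 64.2% of the genes tested were higher. *snai1a*, a repressor that acts in cell migration, had 186 and 172 normalized read counts in double negative cells against 574 and 836 in Venus positive cells, *twist1a*, a factor of crest and other mesenchyme, 462 and 866 against 3346 and 2778, *msx1b* 884 and 1030 against 6153 and 5480, and *msx2b* 183 and 387 against 3707 and 1941. The log2 fold changes were 1.98, 2.21, 2.60 and 3.31. With adjustment over 23016 genes, which 224 of the 484 higher listed genes passed, all but *snai1a* passed (edgeR, adjusted p = 0.0827 for *snai1a*). The log2 fold change of *msx2b* was 3.94 without double negative replicate 2. None of these 4 genes is particular to the crest, since mesenchyme of other origin uses them as well. With TMM or RLE factors over the listed genes alone *msx2b* was still called and the other 3 were not, although all kept their direction. *foxd3*, *crestin* and *tfap2a*, which are among the earliest markers of crest cells in zebrafish, were not in the table.

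Of 22 melanophore and melanin genes, 3 were in the table, with a median log2 fold change of -2.45. All 3 were lower, where 35.8% of the genes tested were lower. They were *pmela*, *oca2* and zgc:91968, for which the gene reference gives the synonym *mreg* (melanoregulin, which acts in melanosome transport). It had 27.9 and 54.2 normalized read counts in double negative cells and 0 in both Venus positive libraries, which was at least 12.9-fold lower against a floor of 3 reads per library. It was the only one of the 3 that passed over 23016 genes (edgeR, adjusted p = 0.0122), where 194 of the 270 lower listed genes passed. The genes of the melanin enzymes, *tyr*, *dct* and *tyrp1b*, and *mitfa*, the factor that sets melanophore fate, were not in the table. Of 17 genes of the retinal pigment epithelium, the table held only *pmela* and *oca2*, which that tissue shares with melanophores, and none that is particular to it, such as *rpe65a*.

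Of 14 iridophore genes, 4 were in the table, 3 lower and 1 higher, with a median log2 fold change of -2.36. Over all genes tested 35.8% were lower and 64.2% higher. The lower ones, *pnp4a*, *apoda.1* and *defbl1*, are known as iridophore markers in zebrafish. *apoda.1*, an apolipoprotein D gene, had 717 and 1082 normalized read counts in double negative cells against 202 and 78.1 in Venus positive cells, and *defbl1*, a defensin gene, 673 and 1829 against 196 and 80.7. Both passed over 23016 genes, as 194 of the 270 lower listed genes did and *pnp4a* did not (edgeR, adjusted p = 0.0216 and 0.0110). Their log2 fold changes were -2.69 and -3.18. Without Venus positive library 3 they were -3.52 and -3.95, and that of *defbl1* was -2.28 without double negative replicate 2. The higher one, *alx4a*, a homeobox gene of iridophores and also of craniofacial mesenchyme, had 616 and 834 against 3839 and 2428, a log2 fold change of 2.11 that was not called with TMM or RLE factors over the listed genes alone. The purine list of 22 genes held *pnp4a* and *pnp5a*, both lower, and *xdh*, higher. *pnp5a* had 1575 and 1275 normalized read counts in the double negative libraries against 250.1 and 451 in the Venus positive libraries, a log2 fold change of -2.02. No gene of the enzymes that build the purine ring, such as *gart* and *paics*, was in the table.

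Of 16 xanthophore genes, 3 were in the table, with a median log2 fold change of 3.39. All 3 were higher, where 64.2% of the genes tested were higher. *pts*, which encodes an early enzyme of pteridine synthesis, had 9.86 and 17.4 normalized read counts in double negative cells against 245 and 41.6 in Venus positive cells. *slc2a11b*, a transporter gene known from yellow pigment cells of medaka, had 6.57 and 49.1 against 607 and 75.5. Their log2 fold changes were 3.39 and 3.62 with standard errors of 0.98 and 1.03 (edgeR, adjusted p = 0.00393 and 0.00358 over the listed genes, 0.120 and 0.109 over 23016 genes). Summed over the 3 genes the counts were 45.2 and 84.9 in double negative cells against 1163 and 179 in Venus positive cells, so that most of the increase lay in library 3, and without that library none of the 3 was called (log2 fold changes 1.38, 1.61 and 1.45). Without library 4 those of *pts* and *slc2a11b* were 4.17 and 4.46, and that of *slc2a11b* was 2.79 without double negative replicate 1 and 5.67 without replicate 2. With TMM or RLE factors over the listed genes alone all 3 stayed higher and none was called. Of 10 genes of pteridine synthesis, the table held *pts* and *xdh*. The xanthophore markers *gch2*, *aox5* and *csf1ra* were not in the table.

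**Figure D5:**
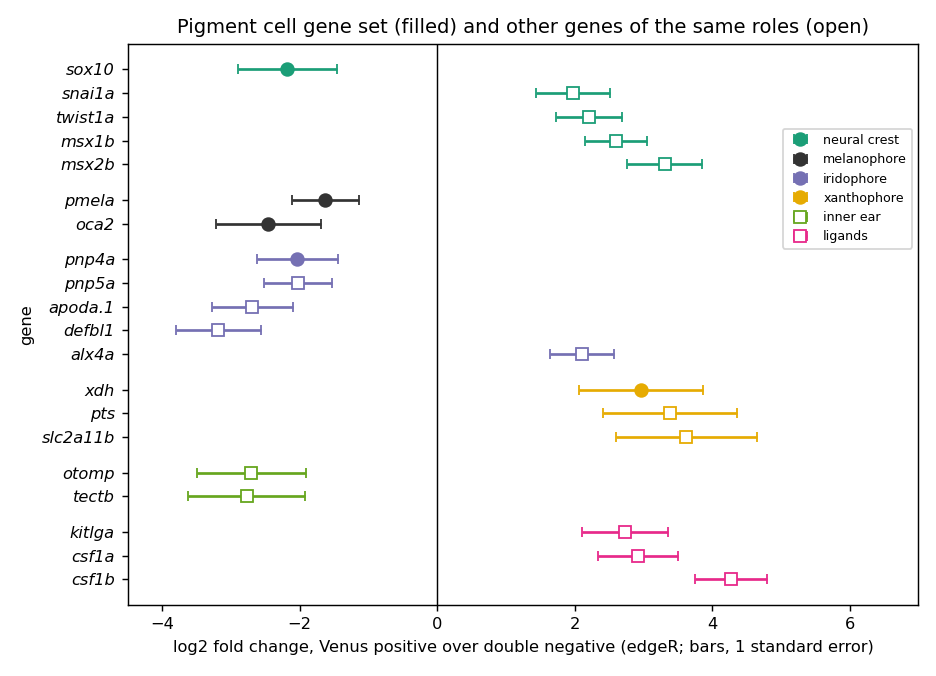
Log2 fold change of Venus positive over double negative cells (edgeR, bars of 1 standard error) for the 5 genes (filled) and the other listed genes of the same roles (open). *pnp5a*, which is on the purine list and not on the iridophore list, is drawn with the iridophore genes. zgc:91968, at 0 in both Venus positive libraries, is left out. The melanophore genes lie between -2.45 and -1.62, the xanthophore genes between 2.97 and 3.62, and in the neural crest group *sox10* stands at -2.18 while the 4 others lie between 1.98 and 3.31.

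The other tissues in which *sox10* is known were read in the same way. Of 14 glial genes *sox10* alone was in the table. Of 11 inner ear genes 3 were in it, *sox10*, *otomp* and *tectb*. All were lower, where 35.8% of the genes tested were lower. *otomp*, which encodes an otolith matrix protein, had 245 and 212 normalized read counts in the double negative libraries against 20.1 and 49.5 in the Venus positive libraries. *tectb*, which encodes a protein of the tectorial and otolithic membranes, had 168 and 104 against 26.4 and 13.9. Their log2 fold changes were -2.70 and -2.77, and neither passed over 23016 genes (edgeR, adjusted p = 0.126 and 0.164). Without Venus positive library 4 that of *otomp* was -3.50, and without double negative replicate 1 that of *tectb* was not called (edgeR, adjusted p = 0.0543). Which of these tissues the *sox10* reads came from cannot be told apart in these libraries.

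Of 19 genes of ligands and receptors of pigment cells, 3 were in the table, all ligands and all higher, where 64.2% of the genes tested were higher. All 3 also passed when adjusted over 23016 genes, as did 224 of the 484 higher listed genes. *kitlga*, the ligand of the melanophore receptor Kita, had 61.6 and 98.2 normalized read counts in double negative cells against 546 and 521 in Venus positive cells, a log2 fold change of 2.74 (edgeR, adjusted p = 0.0294 over 23016 genes). *csf1a* and *csf1b* encode ligands of Csf1ra, which xanthophores and macrophages need. *csf1a* had 156 and 492 against 3317 and 1592, and *csf1b* 159 and 294 against 4797 and 3958, with log2 fold changes of 2.92 and 4.27 (edgeR, adjusted p = 0.0130 and 2.65e-04 over 23016 genes). That of *csf1a* was 2.32 and 3.97 without double negative replicates 1 and 2, and 2.30 without Venus positive library 3. The receptor genes *kita*, *csf1ra*, *ltk* and *ednrba* were not in the table. A gene under the symbol *edn3* was in the table, where the list had only *edn3a* and *edn3b*. It had 23.0 and 118 normalized read counts in double negative cells against 2508 and 1680 in Venus positive cells. Its log2 fold change was 4.90 (edgeR, adjusted p = 9.91e-04 over 23016 genes), and it was looked up after the values were seen. With TMM or RLE factors over the listed genes alone *csf1b* was still called, and *kitlga* and *csf1a* were not.

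The genes whose pattern over the 4 libraries was most like that of each gene were named by Euclidean distance of centred log2(normalized read count + 1), among 579 genes compared, as a description over 4 points. Nearest to *sox10* was *gpr75*, a G protein-coupled receptor gene, at a distance of 0.10, followed by the keratin gene *krt5* at 0.44 and *mid1ip1a* at 0.47. Nearest to *pmela* were *fam171b* at 0.08, *dmtn* at 0.36 and the phosphorylase gene *pnp5a* at 0.41, and nearest to *oca2* were *ap1s3b* at 0.36, *cers6* and *anxa3a* at 0.42 and 0.43. *pnp4a* was most like *cst14b.1* at 0.66, the iridophore marker *apoda.1* at 0.68 and *rcvrnb* at 0.70. *xdh* had *opn5* at 0.57, *uck1* at 0.80 and *fstl1a* at 0.82, and in all 3 of these library 3 was above library 4, as in *xdh*.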

How the data were processed

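Libraries were made with Smart-seq2, without molecular identifiers. In the submitters' processing notes the tools are HISAT2 2.0.4, Bowtie2 2.4.4, RSEM 1.2.28 and DESeq2, and the build is GRCz11. The authors estimated expected counts with RSEM, which need not be whole, divided them by size factors to a normalized signal, and deposited group means of TPM and FPKM (FPKM was not used in the text). The authors' deposited p-values and Q values, fold changes included, come from their own DESeq2 comparison. Q was used only to recover that 756 genes are listed at Q under 0.05 over 23016 genes. A further 10 per-library columns and 18 fold columns between single libraries were not used. The Venus positive count columns are numbered 3 and 4 where the labels have 1 and 2. They were used as 2 libraries of the group, without a link to a single sample.

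Counts were raised to whole numbers. Size factors were 1.22 and 0.978 (double negative, from matched columns) and 0.796 and 1.15 (Venus positive libraries 3 and 4). The latter came from normalized counts of 7 genes in the study's source data, because the plan to fit them on the authors' group mean gave no factor per library. This choice was made after the files were seen. edgeR 4.0.16 in R 4.3.3 (quasi-likelihood, ~ group, adjusted p under 0.05 by Benjamini-Hochberg, two-sided) was run on the 754 genes with at least 10 counts in 2 libraries. It was also run on simulated data, in which most genes did not differ and equal numbers were raised and lowered. The listed genes were all selected for a difference, so the simulation does not check the fit on them. The biological coefficient of variation of that fit, 0.417, comes from genes selected for a difference. For the adjustment over 23016 genes, unlisted genes were ranked below all listed ones. Alternatives were TMM and RLE factors, no filter, rounding, DESeq2 1.42.0 and leaving out each library. Pair ratios used a pseudocount of 1.

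The 5 genes and the 16 gene lists (217 genes, matched by symbol or, for 2 genes, NCBI gene ID) were chosen with earlier results of these data known. Genes named are the 5, every table gene of the lists on neural crest, pigment cells, purine and pteridine synthesis, retinal pigment epithelium, glia, inner ear, and pigment ligands and receptors, the 3 nearest genes in pattern, and *apln*. *edn3* was added after its values were seen. Also looked up then, but not described, were *ednraa*, *bco1* and *msx3*, which were higher, and *gpr17*, *akap12a* and *tspan37*, which were lower. NCBI gene IDs were 140616 (*sox10*), 321239 (*pmela*), 567419 (*oca2*), 415192 (*pnp4a*) and 560486 (*xdh*), and 737 table IDs were found in a RefSeq table of another assembly, used for names and neighbours. There, genes overlap *sox10* (1), *pmela* (1), *pnp4a* (2) and *xdh* (1), and no strand-specific counting is stated, so reads of overlapping genes cannot be told apart. Reads of related sequences are also shared by the estimate. A planned search of promoter motifs was not run, and no sequence is printed.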

Additional observations from a re-analysis of the deposited data

How the results depend on the processing

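All 5 genes kept their direction under every alternative run. The number called, 5, was 0 with adjustment over 23016 genes. Of all listed genes, 194 of the 270 lower and 224 of the 484 higher ones passed that adjustment. The log2 fold changes, unchanged by this, were -2.18 for *sox10*, -1.62 for *pmela*, -2.45 for *oca2*, -2.03 for *pnp4a* and 2.97 for *xdh*. Leaving out a library gave log2 fold changes of -2.45 to -1.84 for *sox10*, -2.31 to -1.16 for *pmela* and -2.98 to -2.08 for *oca2*. For *pnp4a* they were -2.97 to -1.46 and for *xdh* 1.38 to 3.71. With TMM and RLE factors over the listed genes *xdh* was at 1.08 and 0.95. These factors assume that most genes do not differ, which the listed genes do not meet, so higher calls lost under them give no evidence. Of 16 other list genes, 10 were called higher and 6 lower, where 64.2% and 35.8% of the genes tested were. With TMM or RLE factors 2 were called higher, *msx2b* and *csf1b*, and the 6 lower calls were kept. Over all genes tested, 84 (TMM) or 72 (RLE) were then called higher and 270 lower. Over 23016 genes 5 of the 16 lost their calls. zgc:91968 failed the count minimum without either double negative replicate. Of the 10 gene pairs, 5 did not overlap between the groups, and 5 to 10 when a library was left out. The 4 pairs with *xdh* could not overlap, because their genes had been selected for differences and went in opposite directions. The share over pairs of all listed genes was not computed, so this count gives no evidence of its own. With 1 library in a group that group has no spread of its own, and a ratio overlaps less often by construction. No paired analysis was possible because Venus positive libraries carry the numbers 3 and 4 in the table but 1 and 2 in the labels. Low counts limit *xdh* in the double negative cells and *oca2* in the Venus positive cells.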
